A study of Mus musculus with 8 samples.

Results

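The genes described here are 9 members of the complement system, C1qa, C1qb, C1qc, C3, C4b, C6, C7, C3ar1 and C5ar1, measured in single nuclei of mouse fat. The rule names them and uses no measured value, though they were proposed with earlier results of these data known, and they are the rows of the count matrices that carry these symbols. All 9 were found, among 56749 features, in all 8 libraries. The tissue was visceral white adipose tissue, frozen, broken open and flow-sorted for nuclei, with 1 library per mouse and 2 mice per group. Every mouse carried 1 p21 allele with an insertion, so no group is wild type for p21, the cell cycle inhibitor encoded by Cdkn1a. The mCherry SD mice (rep144 and rep146) were p21+/mCherry on a standard diet (SD), and the mCherry HFD mice (rep128 and rep129) had the same genotype on a high-fat diet (HFD). The Tert HFD mice (rep134 and rep136) were p21+/mCherry-Tert and the TertCi HFD mice (rep138 and rep140) p21+/mCherry-TertCi, both on the high-fat diet. Tert encodes the catalytic subunit of telomerase, and the labels do not spell out what TertCi is. The labels give no age or sex. The series' design text names the stromal vascular fraction and p21+/- mice instead, and the sample labels were followed.

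Complement is a cascade of secreted proteins that tags targets for uptake, calls in immune cells and can pierce membranes. C1q, built from the products of C1qa, C1qb and C1qc, starts the classical pathway, C4 and C3 are cleaved next, and C6 and C7 belong to the terminal complex that inserts into membranes. The cleavage fragments C3a and C5a act through the receptors C3ar1 and C5ar1. In most tissues macrophages make C1q, while C3 and C4 are made by many cells, fat cells and fibroblasts among them.

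The libraries held 23378488 to 139749876 UMIs, the unique molecular identifiers that count single RNA molecules, and 1978 to 7433 called nuclei, 30209 in all. Between 32.6 and 46.8% of a library's UMIs lay in called nuclei, and between 17.3 and 61.3% of a member's UMIs did. Barcodes below the limit for a called nucleus can hold nuclei too: with a limit of 1000 UMIs in every library, mCherry HFD rep128 had 13730 macrophage-like nuclei in place of 3710. Levels are given in CPM, a gene's UMIs scaled to the same total in every library or class, which compares a gene between samples but not 2 genes with each other. Classes of nuclei were named from marker genes, with complement genes kept out of the clustering. They comprised 8603 macrophage-like, 5257 adipocyte-like, 5063 progenitor-like, 1577 mesothelial-like and 1331 endothelial-like nuclei, while 6253 nuclei carried markers of more than 1 lineage and were set aside as mixed. Some clusters came wholly or mostly from 1 library. The 228 epithelial-like nuclei, in clusters of 119 and 109, came from mCherry HFD rep128 alone, as did 86.5% of an unnamed cluster of 37 nuclei led by Alb and Cps1, genes of liver cells. Clusters of 285, 145 and 63 mixed nuclei, the last led by Akr1b7 among others, came from mCherry SD rep146 alone. None of these is in a class compared here, but their UMIs are in the whole-library sums. A cluster of 579 adipocyte-like nuclei, which is in a compared class, came to 91.4% from Tert HFD rep136. Pairs of libraries shared 0 to 14 barcodes of called nuclei. The insertions could not be checked: Tert stood at 3.52 and 3.98 CPM in mCherry SD, 3.27 and 3.58 in mCherry HFD, 2.66 and 2.01 in Tert HFD and 2.76 and 2.48 in TertCi HFD, and the mCherry feature had at most 17 UMIs in a library. Every direction between genotypes therefore holds for the libraries as labelled.

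The DNA before the start of the genes is shown first for members whose levels are compared most, since C1qb, C1qc and C5ar1 had their highest level in the same class of nuclei and C3 did not. RefSeq promoter entries of build GRCm38.p6 were matched for 7 of the 9 members, and C1qa and C4b had none. Each sequence is the 250 bases before the start on the gene's own strand. Capitals mark matches on either strand to GAGGAAG, a core of sites for the myeloid factor PU.1, or to TTNCNNAA, a form of C/EBP sites. The 4 windows lie at chr4:136886201-136886450 (minus strand, C1qb), chr4:136892915-136893164 (minus, C1qc), chr17:57228137-57228386 (minus, C3) and chr7:16259339-16259588 (minus, C5ar1).
C1qb: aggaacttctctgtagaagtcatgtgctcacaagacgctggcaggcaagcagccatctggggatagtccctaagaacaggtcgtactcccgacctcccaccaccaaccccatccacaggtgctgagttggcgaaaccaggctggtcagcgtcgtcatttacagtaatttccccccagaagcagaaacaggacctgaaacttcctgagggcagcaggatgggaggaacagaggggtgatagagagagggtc
C1qc: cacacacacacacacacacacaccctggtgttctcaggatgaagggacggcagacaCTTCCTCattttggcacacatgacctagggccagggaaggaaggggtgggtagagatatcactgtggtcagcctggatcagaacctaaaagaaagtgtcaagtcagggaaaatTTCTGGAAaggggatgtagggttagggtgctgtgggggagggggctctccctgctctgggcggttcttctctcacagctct
C3: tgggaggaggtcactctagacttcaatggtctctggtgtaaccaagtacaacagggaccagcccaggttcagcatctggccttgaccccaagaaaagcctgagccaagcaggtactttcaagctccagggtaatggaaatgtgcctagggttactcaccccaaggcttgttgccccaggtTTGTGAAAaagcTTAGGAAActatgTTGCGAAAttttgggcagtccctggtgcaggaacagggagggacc
C5ar1: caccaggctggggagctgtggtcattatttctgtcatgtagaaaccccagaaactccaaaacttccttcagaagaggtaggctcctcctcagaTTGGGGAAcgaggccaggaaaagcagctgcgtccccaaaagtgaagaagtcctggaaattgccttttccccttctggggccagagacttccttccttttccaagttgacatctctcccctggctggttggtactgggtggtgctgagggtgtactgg
The C1qc window held 1 match to GAGGAAG, starting at position -194 from the gene start, and 1 to TTNCNNAA at -81. The C3 window held 3 matches to TTNCNNAA, at -70, -58 and -45, and the C5ar1 window 1, at -157, while these letters were not in the C1qb window. Among the other members, the C6 and C7 windows held 2 matches each to TTNCNNAA and the C3ar1 window none to either. Over all 32851 promoter entries, 10.6% held GAGGAAG and 36.8% held TTNCNNAA. A match describes letters only and says nothing of binding.

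Among the named classes, C1q RNA was highest in macrophage-like nuclei in 8 of 8 libraries for each subunit. Its level in the whole library was several-fold higher in mCherry HFD mice than in the other groups. Over all barcodes C1qa, the A chain of C1q, stood at 19.3 and 26.8 CPM in mCherry SD, 155 and 218 in mCherry HFD, 64.7 and 26.1 in Tert HFD and 28.1 and 23.9 in TertCi HFD. For C1qb, the B chain, the values were 10.8 and 17.0, 187 and 198, 50.9 and 30.1, and 22.2 and 24.4 CPM in the same order. C1qc, the C chain, had 22.6 and 22.1, 151 and 137, 61.5 and 23.4, and 21.8 and 22.6 CPM. Both mCherry HFD mice lay above all 6 other mice for each subunit, and Tert HFD rep134 was the next highest.

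In a quasi-likelihood fit with edgeR, with p-values adjusted after Benjamini-Hochberg over 24825 genes, C1qa rose on the high-fat diet by 2.56 on the log2 scale (SE 0.316, adjusted p 0.00127). It fell by 1.73 (SE 0.307, adjusted p 0.0123) in Tert HFD and by 2.42 (SE 0.315, adjusted p 0.00219) in TertCi HFD, both against mCherry HFD. The C1qb changes were 3.34 (SE 0.217), -1.91 (SE 0.205) and -2.62 (SE 0.210) in the same order. Those of C1qc were 2.21 (SE 0.314), -1.46 (SE 0.306) and -2.27 (SE 0.314), and all were called, which means an adjusted p below 0.05. The 3 comparisons share the mCherry HFD mice. Of all 9 members, 6 rose and 1 fell on the diet, beside 21.6% of all genes that rose and 16.8% that fell, and 5 fell in Tert HFD (11.2% of all genes fell) and 6 in TertCi HFD (18.6%). The median change of the members was 2.21, -1.53 and -2.27 in these comparisons, against 0.04, -0.07 and -0.16 over all genes. Without mCherry HFD rep129 the Tert calls of C1qa (-1.46, adjusted p 0.0738 by edgeR) and C1qc (-1.53, adjusted p 0.0788 by edgeR) were lost, and that of C1qc also without mCherry HFD rep128 (-1.39, adjusted p 0.0937 by edgeR). Summed over called nuclei alone, the diet changes were smaller, 1.42 for C1qa, 2.50 for C1qb and 1.43 for C1qc, as were the Tert changes (-0.96, -1.35 and -0.87) and the TertCi changes (-1.65, -2.15 and -1.70), and all stayed called.

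**Figure D1:**
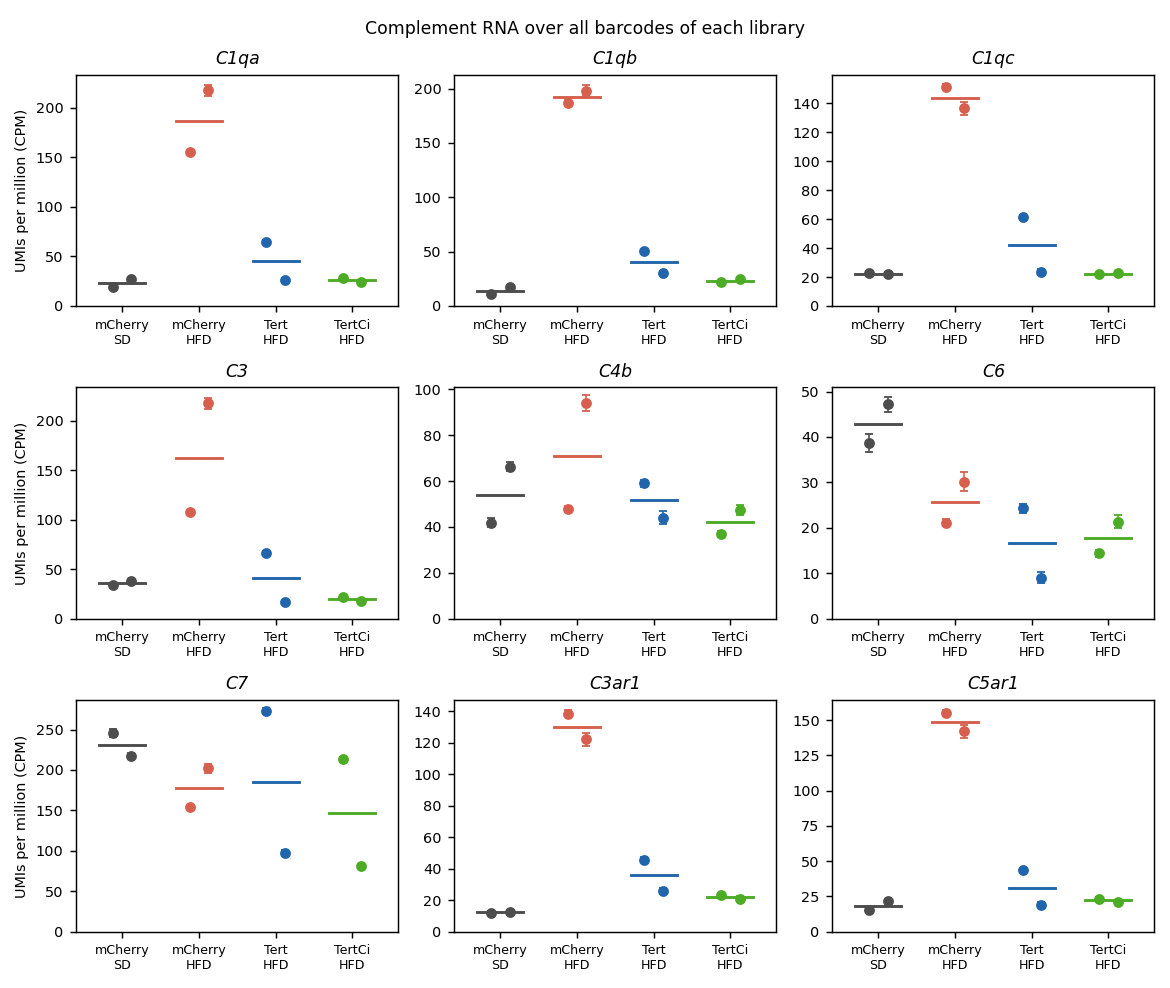
Levels of the 9 genes over all barcodes, in CPM, with 1 point per library, bars for the 95% Poisson interval of the counts and a line at the group mean. C1qa, C1qb, C1qc, C3ar1 and C5ar1 lie far higher in both mCherry HFD libraries than elsewhere, while C4b, C6 and C7 do not.

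The macrophage-like share of called nuclei was also highest in mCherry HFD. It was 3.65 and 5.27% in mCherry SD, 49.9 and 47.9% in mCherry HFD, 26.5 and 28.4% in Tert HFD and 19.9 and 15.3% in TertCi HFD. These shares rest on unequal remainders, since mixed nuclei made up 44.9 and 47.0% in mCherry SD and 13.9 and 9.80% in mCherry HFD. They were 19.7 and 13.7% in Tert HFD and 13.7 and 24.1% in TertCi HFD. The macrophage-like share was larger in TertCi HFD than in mCherry SD, though their whole-library C1qa and C1qc levels were close. Within the class, a subcluster of 1081 nuclei also had 7 adipocyte markers raised and made up 55.7% of macrophage-like nuclei in Tert HFD rep136 against 0.054 to 27.4% in the other libraries, and leaving it out changed none of the 10 calls of members in the class. In whole-library sums, more macrophages and more C1q RNA per macrophage cannot be told apart. Within macrophage-like nuclei C1qa was 71.2 and 125 CPM in mCherry SD, 113 and 129.3 in mCherry HFD, 124 and 59.5 in Tert HFD and 109 and 51.4 in TertCi HFD. These ranges overlap, and no C1qa comparison was called (diet 0.08, SE 0.349, adjusted p 0.902 by edgeR), though with nuclei of at least 1000 UMIs in every library the TertCi difference was (-0.64, adjusted p 0.0398 by edgeR). C1qc was not called in them either, with 84.1 and 106, 136.2 and 96.3, 135 and 65.8, and 82.9 and 70.8 CPM. C1qb was 87.4 and 112 CPM in mCherry SD, 170 and 155 in mCherry HFD, 110 and 87.6 in Tert HFD and 87.1 and 84.3 in TertCi HFD, with both mCherry HFD mice highest. Barcodes of at most 100 UMIs held C1qb at 10.95 and 23.0, 259.6 and 349, 85.0 and 29.5, and 35.6 and 55.8 CPM, above the macrophage-like level in both mCherry HFD mice and below it in the other 6, and the part of this free RNA in the C1qb differences was not tested. In the fit C1qb fell by 0.58 (SE 0.155, adjusted p 0.0217 by edgeR) in Tert HFD and by 0.78 (SE 0.158, adjusted p 0.00406 by edgeR) in TertCi HFD, and the diet change of 0.52 missed the threshold (adjusted p 0.0554). With nuclei of at least 1000 UMIs in every library the C1qb diet change was called (0.96, adjusted p 0.00165 by edgeR), as it was without Tert HFD rep134 (0.52, adjusted p 0.0401 by edgeR). The Tert call was lost without mCherry HFD rep128 (-0.50) or rep129 (-0.65), Tert HFD rep136 (-0.47) or TertCi HFD rep140 (-0.51), and the TertCi call without mCherry HFD rep128 (-0.69) or TertCi HFD rep138 (-0.78).

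C1q RNA was also counted in nuclei of other classes and outside nuclei, and there it followed the groups. In barcodes of at most 100 UMIs, which are too shallow for a called nucleus and are taken as a measure of free RNA, C1qa stood at 24.7 and 35.5 CPM in mCherry SD, 199 and 392 in mCherry HFD, 79.9 and 20.6 in Tert HFD and 32.4 and 28.8 in TertCi HFD. In both mCherry HFD mice this was above the level in macrophage-like nuclei themselves, while in the other 6 it was below. B-like nuclei, which should lack C1q, held C1qa at 59.4 and 99.1 CPM in mCherry HFD and 18.0 and 14.2 in mCherry SD. Their cluster also had adipocyte markers raised, with a mean log2 score of 2.72 beside 3.28 for B markers. In progenitor-like nuclei C1qb was 4.30 and 5.27 CPM in mCherry SD, 30.5 and 26.1 in mCherry HFD, 8.39 and 8.93 in Tert HFD and 4.94 and 4.11 in TertCi HFD. Its diet change there, 2.35 (SE 0.395, adjusted p 0.00415 by edgeR), was called, as it was in mesothelial-like (2.49), adipocyte-like (2.22) and endothelial-like nuclei (2.32). The progenitor-like call was lost without mCherry SD rep146 (2.43, adjusted p 0.0520 by edgeR) and the adipocyte-like call without mCherry HFD rep128 (1.97). The endothelial-like call was lost without mCherry HFD rep128 (2.11) or mCherry SD rep146 (1.80) and with nuclei named by marker scores alone (2.12, adjusted p 0.140 by edgeR). The summed level of 10 macrophage markers in the barcodes of at most 100 UMIs was 644 and 761 CPM in mCherry SD, 2813 and 2923 in mCherry HFD, 1704 and 969 in Tert HFD and 1046 and 970 in TertCi HFD. The same summed markers were higher in mCherry HFD within these classes too, with 208 and 183 CPM in mCherry SD against 418 and 480 in mCherry HFD in progenitor-like nuclei. The values were 862 and 937 against 1617 and 1612 CPM in mesothelial-like, 668 and 620 against 884 and 1008 in adipocyte-like and 1331 and 1532 against 2138 and 2175 in endothelial-like nuclei. The part of free RNA and of macrophage RNA in the C1q levels of these other classes was not tested. They were below those of the barcodes of at most 100 UMIs in at least 7 of 8 libraries for each subunit in progenitor-, mesothelial- and adipocyte-like nuclei, while in endothelial-like nuclei C1qa was above in 3 libraries, C1qc in 2 and C1qb in 1. Shares of nuclei with a UMI were taken after thinning each nucleus to 1000 UMIs, which left out 27 shallower macrophage-like nuclei of Tert HFD rep136 and at most 4 of another class. A UMI of any C1q subunit was in 31.1 and 28.0% of macrophage-like nuclei in mCherry HFD (81.8 and 57.9% without thinning, median depths 6366 and 2609 UMIs), and in 17.2 to 26.4% in the other 6 mice. In B-like nuclei of the mCherry HFD mice the share was 13.5 and 23.0% (80.8 and 55.2% without thinning, median depths 7220 and 2986 UMIs), and in mCherry SD it was 1.67 and 4.26% against 17.2 and 23.4% of macrophage-like nuclei. The mCherry HFD shares were 6.69 and 8.97% in progenitor-like, 14.5 and 16.2% in mesothelial-like, 9.44 and 23.2% in adipocyte-like and 23.3 and 17.0% in endothelial-like nuclei (40.1 and 24.4, 63.4 and 47.4, 67.8 and 46.4, and 77.7 and 46.2% without thinning). In mCherry HFD rep129 the share in macrophage-like nuclei was thus 28.0% beside 23.0% in B-like and 23.2% in adipocyte-like nuclei.

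**Figure D2:**
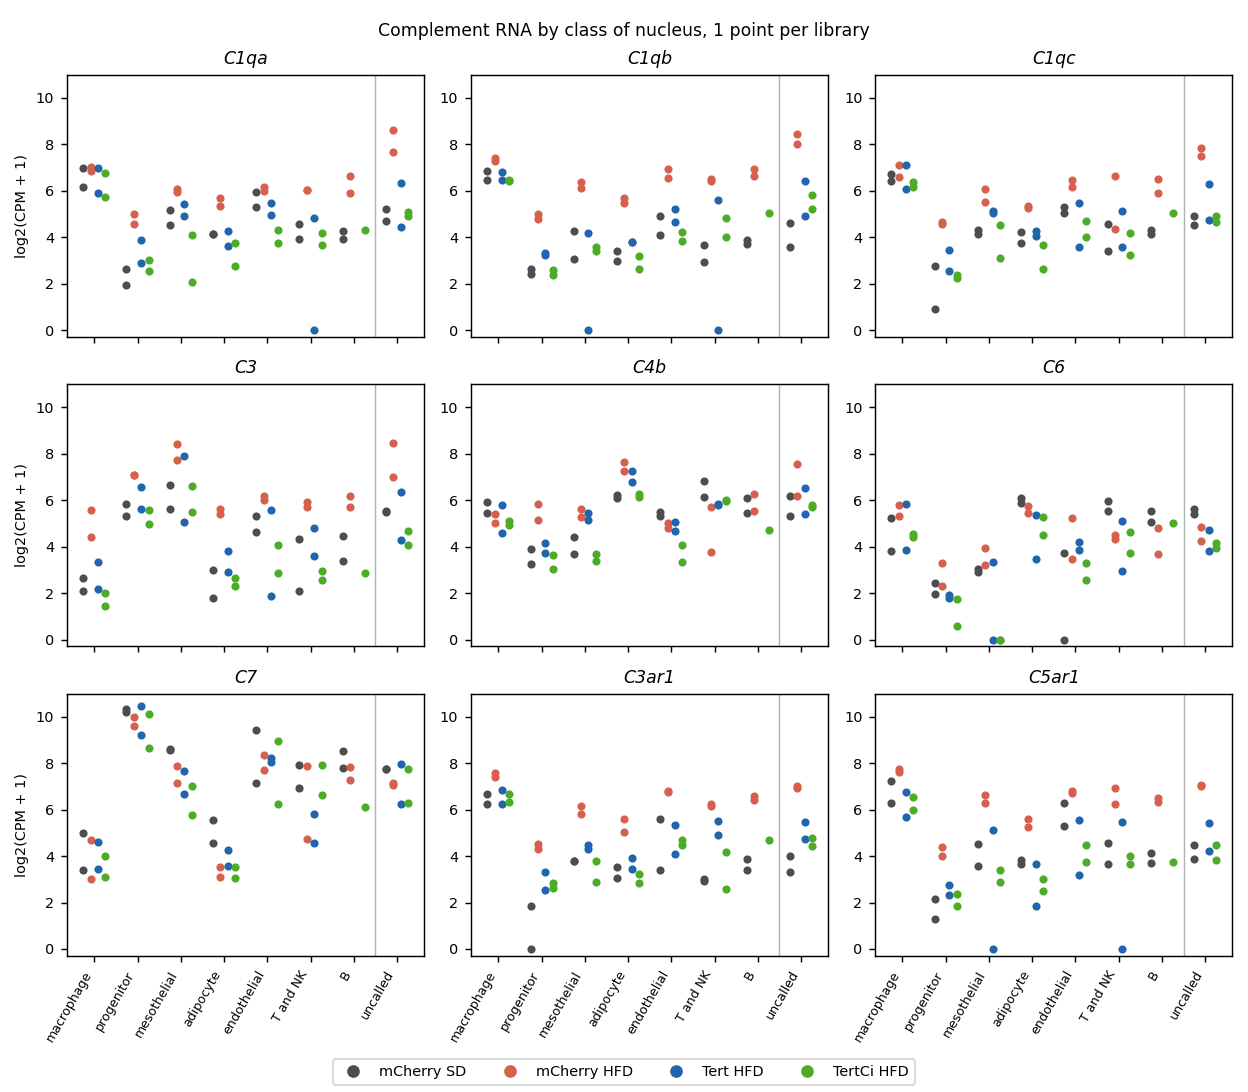
Levels of the 9 genes as log2(CPM + 1) in 7 classes of nuclei and in uncalled barcodes of at most 100 UMIs, with 1 point per library in the colour of its group. Among the classes C1q subunits and both receptors are highest in macrophage-like nuclei, C7 in progenitor-like nuclei, C3 in mesothelial- and progenitor-like nuclei and C4b, in 6 of 8 libraries, in adipocyte-like nuclei, while in both mCherry HFD libraries the uncalled barcodes lie above macrophage-like nuclei for each C1q subunit, and in mCherry HFD rep129 above mesothelial-like nuclei for C3 (356 against 213 CPM).

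C3, the protein on which the pathways converge, was highest among the named classes in mesothelial-like nuclei in 7 of 8 libraries and in progenitor-like nuclei in the other one. Of its UMIs in called nuclei, 25.4% lay in progenitor-like, 23.5% in mesothelial-like, 9.0% in macrophage-like and 29.1% in mixed nuclei, whereas these classes held 12.4, 4.87, 22.1 and 31.2% of all UMIs. Over all barcodes C3 was 34.3 and 38.7 CPM in mCherry SD, 108 and 218 in mCherry HFD, 66.9 and 16.5 in Tert HFD and 21.7 and 18.0 in TertCi HFD. It rose by 1.69 on the diet (SE 0.508, adjusted p 0.0331 by edgeR) and fell by 2.62 in TertCi HFD (SE 0.525, adjusted p 0.0102 by edgeR). The 2 Tert HFD mice lay on either side of the mCherry SD level, and their difference of -1.69 from mCherry HFD was not called (SE 0.507, adjusted p 0.0505 by edgeR). DESeq2 called it (-1.69, adjusted p 0.00354), and edgeR did without Tert HFD rep134 (-2.75) and without the filter on low counts (-1.64, adjusted p 1.57e-13). Without the filter the difference was nearly the same as with it, and why the p-value was so much smaller was not tested. That setting lost none of the 111 called member values and called 7 of 16 uncalled ones. In called nuclei alone the Tert difference was -1.12 and not called (adjusted p 0.0629 by edgeR). The diet call was lost without any 1 of 5 libraries, with 1.10 as the smallest value, without mCherry HFD rep129. The TertCi call was lost without mCherry HFD rep129 (-2.02), TertCi HFD rep138 (-2.68) or TertCi HFD rep140 (-2.53).

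In mesothelial-like nuclei, which line the surface of visceral fat, C3 was 48.8 and 100 CPM in mCherry SD, 345 and 213 in mCherry HFD, 235 and 31.9 in Tert HFD and 96.8 and 44.6 in TertCi HFD. Both mCherry HFD mice lay above both mCherry SD and both TertCi HFD mice, and the Tert HFD mice lay far apart, with rep136 the lowest of all mice. The value of Tert HFD rep136 rested on 3 UMIs. The level was above that of barcodes of at most 100 UMIs, 45.4 and 44.1, 127.5 and 356, 80.7 and 18.3, and 15.9 and 24.4 CPM, in 7 of 8 libraries. C3 rose by 1.77 on the diet (SE 0.418, adjusted p 0.00921 by edgeR) and fell by 1.65 in TertCi HFD (SE 0.436, adjusted p 0.0216 by edgeR). For Tert HFD a difference of -0.56 was not called (adjusted p 0.545), and it was -3.01 without Tert HFD rep134, -0.17 without Tert HFD rep136, -0.24 without mCherry HFD rep128 and -0.89 without mCherry HFD rep129, also not called. Neither call was made by DESeq2 (adjusted p 0.385 and 0.369). The diet call was lost without mCherry HFD rep128 (1.35) or mCherry SD rep144 (1.31), and the TertCi call without mCherry HFD rep128 (-1.28) or TertCi HFD rep140 (-1.28). Thinned to 1000 UMIs, 31.9 and 23.7% of mesothelial-like nuclei had a C3 UMI in mCherry HFD, and 3.63 to 22.9% in the other 6 mice. In the same mCherry HFD mice 11.6 and 13.5% of progenitor-like, 3.33 and 8.93% of adipocyte-like, 2.10 and 4.93% of macrophage-like and 1.92 and 6.90% of B-like nuclei had one. Without thinning these shares were 85.8 and 61.3, 47.0 and 31.6, 27.2 and 21.4, 12.7 and 13.4, and 19.2 and 20.7%. The mesothelial-like nuclei carried mesothelial markers far above other classes, such as Muc16 at 663 CPM against 4 in macrophage- and progenitor-like nuclei, but also progenitor markers such as Col3a1 at 1337 CPM.

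In progenitor-like nuclei, the fibroblast-like cells from which adipocytes form, C3 was 38.7 and 55.3 CPM in mCherry SD, 133 and 135 in mCherry HFD, 94.5 and 47.9 in Tert HFD and 47.4 and 30.3 in TertCi HFD. Both mCherry HFD mice were above all others. The level exceeded that of barcodes of at most 100 UMIs in 6 of 8 libraries. C3 rose by 1.28 on the diet (SE 0.286, adjusted p 0.0152 by edgeR) and fell by 1.55 in TertCi HFD (SE 0.257, adjusted p 0.00218 by edgeR), while the Tert difference of -0.72 was not called (adjusted p 0.0902). The diet call was lost when any 1 of the 4 mCherry mice was left out, at values of 1.10 to 1.50, and the Tert difference was called without Tert HFD rep134 (-1.23) and without the filter on low counts (-0.63, adjusted p 0.0301 by edgeR). In macrophage-like nuclei C3 was called in all 3 comparisons with mCherry HFD (2.65, -2.06 and -3.48), with the diet call lost without mCherry HFD rep129 (1.96) or mCherry SD rep144 (2.46) or rep146 (3.10) and the Tert call without mCherry HFD rep129 (-1.41). Its levels of 20.1 and 46.5 CPM there in mCherry HFD were below those in B-like nuclei of the same mice, 51.5 and 72.1 CPM, and in barcodes of at most 100 UMIs, 127.5 and 356 CPM. The part of free RNA in these differences was not tested.

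C4b encodes a C4 protein and has a near-identical copy, C4a, which had at most 0.89 CPM in any library. How reads that fit both genes were counted was not checked. The highest level of C4b was in adipocyte-like nuclei in 6 of 8 libraries and in T and NK-like nuclei in the other 2. The T and NK-like cluster also had adipocyte markers raised, with a mean log2 score of 2.93 beside 3.65 for its own markers. The part of adipocyte RNA in its C4b level was not tested. In adipocyte-like nuclei C4b was 67.7 and 74.5 CPM in mCherry SD, 150 and 200 in mCherry HFD, 153 and 110 in Tert HFD and 69.5 and 75.8 in TertCi HFD. Different clusters held these nuclei in different libraries, and 1 cluster of 579 nuclei came to 91.4% from Tert HFD rep136, which without it had 338 adipocyte-like nuclei in place of 867. Leaving that cluster out changed none of the 17 calls of members in the class. The mCherry HFD and Tert HFD mice were above the mCherry SD and TertCi HFD mice. C4b rose there by 0.95 on the diet (SE 0.199, adjusted p 0.0106 by edgeR) and fell by 0.81 in TertCi HFD (SE 0.197, adjusted p 0.0258 by edgeR), with a Tert difference of -0.11 that was not called. The diet call was lost when any 1 of the 4 mCherry mice was left out, at values of 0.72 to 1.09. The TertCi call was lost without mCherry HFD rep128 (-0.95) or rep129 (-0.57), mCherry SD rep144 (-0.73), TertCi HFD rep138 (-0.66) or TertCi HFD rep140 (-0.87). Barcodes of at most 100 UMIs held C4b at 38.5 and 71.1, 70.5 and 189, 90.1 and 41.8, and 51.0 and 54.9 CPM in the 4 groups, below the adipocyte-like level in 8 of 8 libraries. In macrophage-like nuclei C4b was 42.1 and 58.9, 31.4 and 41.8, 54.7 and 23.1, and 33.0 and 29.5 CPM, with no call.

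C4b was called in progenitor-like nuclei too, with 8.60 and 14.0 CPM in mCherry SD and 33.9 and 55.3 in mCherry HFD (1.67, SE 0.398, adjusted p 0.0202 by edgeR). There it came to 16.6 and 12.2 CPM in Tert HFD (-1.39, SE 0.325, adjusted p 0.0189 by edgeR) and to 7.11 and 11.3 CPM in TertCi HFD (-2.11, SE 0.340, adjusted p 0.00193 by edgeR). These levels were below those in barcodes of at most 100 UMIs in every library, and the part of free RNA in the differences was not tested. The diet call was lost without mCherry HFD rep129 (1.32) or either mCherry SD mouse (1.44 and 2.02), and the Tert call without mCherry HFD rep129 (-1.04) or either Tert HFD mouse (-1.56 and -1.28). Over all barcodes C4b was 41.9 and 66.2, 47.8 and 94.0, 59.1 and 44.1, and 37.0 and 47.2 CPM. The groups overlapped in the diet comparison and no comparison was called. The fitted diet difference, after TMM scaling of the libraries, was -0.06, and the unscaled mean CPM was 1.31 times higher in mCherry HFD. It was 0.36 without mCherry HFD rep128, 0.12 without mCherry SD rep146 and -0.62 (adjusted p 0.0282 by edgeR) in called nuclei alone.

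C7, a binding partner of C6 in the terminal complex, was a marker-like gene of progenitor-like nuclei, highest there in 8 of 8 libraries, and these nuclei held 54.1% of its UMIs in called nuclei. It stood in them at 1170 and 1297 CPM in mCherry SD, 769 and 1019 in mCherry HFD, 1404 and 592 in Tert HFD and 1113 and 399 in TertCi HFD. The mice of a genotype on the high-fat diet lay far apart in Tert HFD and TertCi HFD, and no comparison was called (diet -0.68, SE 0.397, adjusted p 0.296 by edgeR). Over all barcodes C7 was 245 and 217, 154 and 202, 273 and 97.0, and 213 and 81.1 CPM, also with no call. Without the filter on low counts the diet difference was called in progenitor-like nuclei (-0.72, adjusted p 0.000165 by edgeR) and over all barcodes (-0.87, adjusted p 2.71e-05 by edgeR), while in called nuclei alone it was -0.40 (adjusted p 0.419 by edgeR). Dropping the filter barely moved the differences, and why it made the p-values so much smaller was not tested. C7 did fall on the diet in mesothelial-like nuclei, from 396 and 383 CPM to 140 and 234 (-1.23, SE 0.308, adjusted p 0.0137 by edgeR). It fell in adipocyte-like nuclei from 45.7 and 22.3 CPM to 7.49 and 10.7 (-2.37, SE 0.490, adjusted p 0.0102 by edgeR). Barcodes of at most 100 UMIs held C7 at 211 and 216 CPM in mCherry SD and 140 and 133 in mCherry HFD, above the adipocyte-like level in each of these mice. The 10 summed progenitor markers in adipocyte-like nuclei were 999 and 1164 CPM in mCherry SD and 555 and 877 in mCherry HFD. The part of free RNA and of progenitor RNA in that fall was not tested. The mesothelial-like level was above that of these barcodes in 5 of 8 libraries. In endothelial-like nuclei C7 ran from 74.8 to 694 CPM with a median of 281, above these barcodes in 6 of 8 libraries. A cluster of 476 endothelial-like nuclei also had progenitor markers raised, with a mean log2 score of 3.57 beside 4.33 for endothelial markers. The part of progenitor RNA in the endothelial-like C7 level was not tested. The mesothelial-like call was lost without mCherry HFD rep128 (-0.94) or mCherry SD rep144 (-1.20) and with DESeq2 (-1.21, adjusted p 0.0510), the adipocyte-like call without mCherry HFD rep128 (-2.07) or mCherry SD rep144 (-1.76). Thinned to 1000 UMIs, 22.9 and 28.0% of progenitor-like nuclei had a C7 UMI in mCherry HFD, and 14.9 to 32.5% in the other 6 mice. In the same mCherry HFD mice the share was 0.943 and 2.97% in macrophage-like and 11.5 and 9.20% in B-like nuclei (39.5 and 40.6, 4.66 and 7.18, and 15.4 and 16.1% without thinning).

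C6, the terminal component that joins before C7, had no single class. It was highest in adipocyte-like nuclei in 4 libraries, in macrophage-like nuclei in 2 and in T and NK-like or B-like nuclei in 1 each. The T and NK-like and B-like clusters also had adipocyte markers raised, and the part of adipocyte RNA there was not tested. Over all barcodes C6 was 38.7 and 47.2 CPM in mCherry SD, 21.1 and 30.2 in mCherry HFD, 24.3 and 9.03 in Tert HFD and 14.4 and 21.4 in TertCi HFD, and the mCherry SD mice were the 2 highest. C6 was the 1 member called as falling on the diet, by 1.21 after TMM scaling of the libraries (SE 0.373, adjusted p 0.0368 by edgeR). The fall in the unscaled mean CPM was smaller. C6 was not called between genotypes. The diet call was lost when any 1 of the 4 mCherry mice was left out, at -0.96 to -1.49, and in called nuclei alone (-1.05, adjusted p 0.0502 by edgeR). Adipocyte-like nuclei held C6 at 58.5 and 67.4, 43.2 and 53.3, 40.5 and 9.92, and 21.4 and 38.0 CPM, with no call for it (diet -0.74, adjusted p 0.288 by edgeR) except on the diet without the filter on low counts (-0.86, adjusted p 0.0302 by edgeR). The adipocyte-like share of called nuclei was 23.9 and 28.0% in mCherry SD but 2.42 and 1.95% in mCherry HFD, 13.7 and 27.2% in Tert HFD and 30.3 and 25.2% in TertCi HFD. In macrophage-like nuclei C6 was 12.9 and 36.1 CPM in mCherry SD, 38.5 and 53.6 in mCherry HFD, 55.3 and 13.3 in Tert HFD and 22.4 and 20.2 in TertCi HFD, again with no call. The values of mCherry SD rep144 and Tert HFD rep136 rested on 4 and 19 UMIs.

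Within macrophages of the high-fat diet mice, C6 was highest in perivascular-like subclusters. When macrophage-like nuclei were clustered again, subclusters 1 and 4 of 7 carried all 8 perivascular markers, such as Lyve1, Cd163 and Folr2, which mark macrophages lying along vessels. Different subclusters held these nuclei in different groups. Subcluster 1, with Timd4 and Tfrc among its leading genes, made up 80.6 and 76.6% of macrophage-like nuclei in mCherry SD and 33.9 to 59.4% in the Tert HFD and TertCi HFD mice, but 0.11 and 0.44% in mCherry HFD. Subcluster 4, led by Wfdc17, C6, Ccl8, Fcna and Vsig4 among others, made up 17.6 and 17.0% in mCherry HFD and at most 2.6% elsewhere, and 71.3% of its nuclei came from mCherry HFD rep128. Over both subclusters C6 was 16.1 and 35.4 CPM in mCherry SD, 184 and 239 in mCherry HFD, 85.9 and 36.1 in Tert HFD and 36.6 and 36.9 in TertCi HFD. The other subclusters were counted only where they held at least 20 nuclei. In mCherry SD this left 21 nuclei of subcluster 5 in rep146 alone. In the counted ones C6 stayed at or below 18.6 CPM, with 1 exception. It was 107 CPM in the 35 monocyte-like nuclei of subcluster 5 in mCherry HFD rep129. In mCherry SD rep146 the C6 level over both perivascular-like subclusters was no higher than over all macrophage-like nuclei. Barcodes of at most 100 UMIs held C6 at 18.1 and 27.8 CPM in mCherry HFD, and the level over both subclusters was above theirs in 6 of 8 libraries. In both mCherry SD mice, the baseline of the diet comparison, it was below theirs, which was 41.6 and 48.7 CPM.

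**Figure D3:**
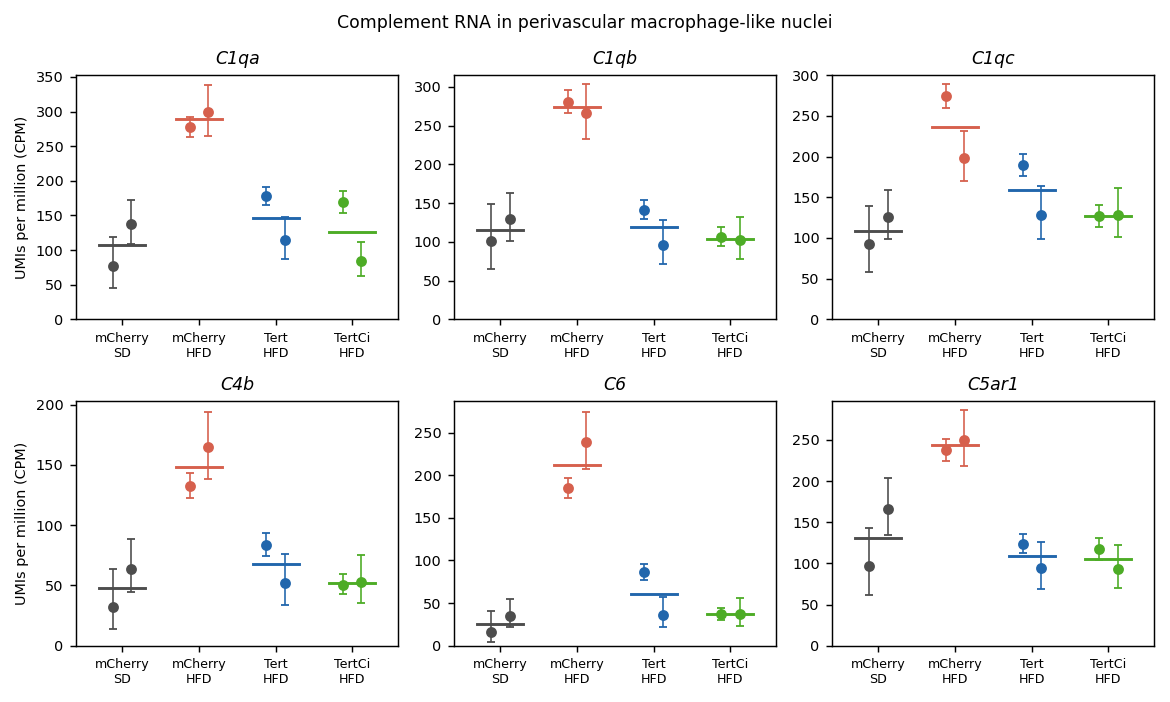
Levels of 6 complement genes in the perivascular macrophage-like nuclei of each library, in CPM, with 95% Poisson intervals of the counts and a line at the group mean. Both mCherry HFD libraries are highest for each gene, with C6 at 184 and 239 CPM against 16.1 and 35.4 in mCherry SD.

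The fit on these nuclei was added after the C6 levels had been seen, so its results describe a pattern already known. In mCherry HFD, 654 of 658 and 234 of 240 of these nuclei were of subcluster 4, which had C6 among its leading genes. In mCherry SD, 75 of 75 and 121 of 122 were of subcluster 1, as were most in Tert HFD and TertCi HFD. Group and subcluster therefore cannot be told apart in this fit, for C6 and for the other members. C6 rose by 2.72 on the diet (SE 0.367, adjusted p 0.000248 by edgeR over 8405 genes), and fell by 1.52 (SE 0.262, adjusted p 0.00123) in Tert HFD and by 2.40 (SE 0.287, adjusted p 5.12e-05) in TertCi HFD. These 3 calls stayed with DESeq2 and without any 1 library, though the values moved. With 1 library left out, the C6 differences ran from 2.43 to 3.52, from -2.42 to -1.23 and from -2.63 to -2.26 in the same order. C4b was 32.2 and 63.7, 133 and 165, 83.6 and 52.2, and 50.6 and 52.8 CPM in the 4 groups, and its changes were 1.35 (SE 0.290), -0.93 (SE 0.231) and -1.41 (SE 0.242), all called. Its level exceeded that of barcodes of at most 100 UMIs in 2 of 8 libraries, among them mCherry HFD rep128, and the part of free RNA in these changes was not tested. The C4b diet call was lost without mCherry SD rep144 (1.07) and the Tert call without mCherry HFD rep129 (-0.83). The C1q subunits were highest in both mCherry HFD mice too, with C1qa at 76.4 and 138.1, 278 and 300, 178 and 114, and 169 and 84.4 CPM. C1qa rose by 1.20 on the diet (SE 0.293, adjusted p 0.0128 by edgeR) and fell by 0.84 in Tert HFD (adjusted p 0.0398) and by 0.98 in TertCi HFD (adjusted p 0.0118). Barcodes of at most 100 UMIs held less C1qa than these nuclei in 7 of 8 libraries, and more in mCherry HFD rep129 (392 CPM). The diet call of C1qa was lost without mCherry SD rep144 (0.93) or rep146 (1.74), and its Tert call with DESeq2 (-0.89, adjusted p 0.0651) and without mCherry HFD rep128 (-0.93) or rep129 (-0.83) or Tert HFD rep136 (-0.65). Its TertCi call was lost without TertCi HFD rep140 (-0.65). C1qb, with 100.5 and 129.2, 281 and 267, 141 and 96.3, and 106 and 102 CPM, changed by 1.08, -1.07 and -1.29, and these calls stayed without any 1 library and with DESeq2. Of the 9 members 6 rose on the diet (7.97% of all genes rose), and 6 fell in Tert HFD (8.07% of all genes fell) and 7 in TertCi HFD (11.3%). None was called between Tert HFD and TertCi HFD (0.0119% of all genes called). At an unadjusted p below 0.05 there were 2 members in edgeR and 1 in DESeq2, which called 0. The share of all genes at that unadjusted threshold was not set beside these. C3, with 25.4 and 48.2 CPM in mCherry HFD, was below its level in B-like nuclei here as well, and the part of free RNA in its differences was not tested.

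Subclusters 0 and 6 both raised all 9 markers of lipid-associated macrophages, such as Trem2 and Gpnmb, which load lipid. Subcluster 6 was led by genes of dividing cells, such as Top2a and Mki67, and is set apart here, while subcluster 0 had Gpnmb among its leading genes. At least 20 nuclei of subcluster 0 were counted in both mCherry HFD mice and in Tert HFD rep134. It held C1qa at 56.9 and 66.8 CPM and C6 at 1.47 and 3.76 CPM in mCherry HFD, and subcluster 6 held C1qa at 76.3 and 55.3 CPM. B-like nuclei of the same mice held C1qa at 59.4 and 99.1 CPM. C3ar1 and C5ar1 stood above B-like nuclei, with C3ar1 at 180.4 and 172 CPM and C5ar1 at 189 and 214 CPM in subcluster 0 in mCherry HFD, against 85.1 and 96.1 and 79.2 and 90.1 CPM in B-like nuclei. Within the mCherry HFD mice, perivascular-like nuclei held more C1qa and C6 RNA than subcluster 0, 278 and 300 against 56.9 and 66.8 CPM for C1qa. Both subsets held the receptors, with C5ar1 at 238 and 250 CPM in perivascular-like nuclei. These contrasts between subclusters are descriptions without a test.

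The receptors C3ar1 and C5ar1, which bind the fragments C3a and C5a on myeloid cells, were highest in macrophage-like nuclei in 8 of 8 libraries. These nuclei held 63.7 and 62.4% of the UMIs of C3ar1 and C5ar1 in called nuclei. Over all barcodes C3ar1 was 11.9 and 12.7 CPM in mCherry SD, 139 and 122 in mCherry HFD, 45.7 and 25.9 in Tert HFD and 23.4 and 20.9 in TertCi HFD. C5ar1 was 15.1 and 21.8, 155 and 142, 43.4 and 18.9, and 23.5 and 20.8 CPM. Both mCherry HFD mice lay far above the others for both receptors. C3ar1 changed by 2.94 (SE 0.197), -1.53 (SE 0.187) and -2.14 (SE 0.190) and C5ar1 by 2.56 (SE 0.268), -1.94 (SE 0.262) and -2.32 (SE 0.266) in the diet, Tert and TertCi comparisons, with adjusted p of at most 0.00566 by edgeR. These 6 calls stayed without any 1 library.

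Within macrophage-like nuclei, where 2 members rose on the diet (11.5% of all 13474 genes rose), and 4 fell in Tert HFD (11.9% of all genes fell) and also 4 in TertCi HFD (15.5%), C3ar1 was among those that rose, and both receptors were among those that fell in each genotype, beside C1qb and C3. C3ar1 was 100 and 75.0 CPM in mCherry SD, 189 and 166 in mCherry HFD, 113 and 75.0 in Tert HFD and 102 and 78.4 in TertCi HFD. Both mCherry HFD mice were above all others. C3ar1 rose by 0.93 on the diet (SE 0.227, adjusted p 0.0132 by edgeR), and fell by 0.77 in Tert HFD (SE 0.190, adjusted p 0.0144) and by 0.81 in TertCi HFD (SE 0.192, adjusted p 0.00903). Its 3 calls were lost without mCherry HFD rep128 (0.79, -0.66 and -0.70), the diet call also without mCherry SD rep146 (0.60), the Tert call without Tert HFD rep136 (-0.55) and the TertCi call without TertCi HFD rep140 (-0.60). C5ar1 was 77.7 and 149, 197 and 212, 106 and 51.1, and 92.8 and 62.4 CPM, with both mCherry HFD mice again highest. It fell by 1.21 in Tert HFD (SE 0.265, adjusted p 0.00796 by edgeR) and by 1.22 in TertCi HFD (SE 0.269, adjusted p 0.00609), and the diet change of 0.63 missed the threshold (adjusted p 0.146). With 1 library left out, this diet change ran from 0.32 to 1.17. The diet change of C5ar1 was called with nuclei of at least 1000 UMIs (0.82, adjusted p 0.026 by edgeR) and without the filter on low counts (0.66, adjusted p 0.0235 by edgeR), and its TertCi call was lost without TertCi HFD rep140 (-0.94, adjusted p 0.0549 by edgeR). B-like nuclei held C3ar1 at 13.9 and 9.50 CPM in mCherry SD and 85.1 and 96.1 in mCherry HFD, and barcodes of at most 100 UMIs held it at 9.07 and 15.1, 130 and 123, 43.3 and 25.8, and 20.7 and 26.1 CPM. This background moved with the groups in the same direction as the level in macrophage-like nuclei, and its part in the result was not tested. In mCherry HFD the C5ar1 level of 197 and 212 CPM stood above the 133.6 and 128.1 CPM of these barcodes. They held C5ar1 at 13.8 and 21.1 CPM in mCherry SD, 42.5 and 17.5 in Tert HFD and 21.2 and 13.1 in TertCi HFD. The C5ar1 background was thus also highest in mCherry HFD, and its part in the C5ar1 differences was not tested. Thinned to 1000 UMIs, 16.4 and 12.1% of macrophage-like nuclei in mCherry HFD had a C3ar1 UMI, against 9.62 and 9.20% of B-like and 1.95 and 2.02% of progenitor-like nuclei (65.1 and 35.5, 36.5 and 24.1, and 11.5 and 7.40% without thinning). For C5ar1 the shares were 16.5 and 17.0, 7.69 and 8.05, and 1.10 and 2.24% (58.7 and 40.3, 36.5 and 23.0, and 8.90 and 6.05% without thinning).

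**Figure D4:**
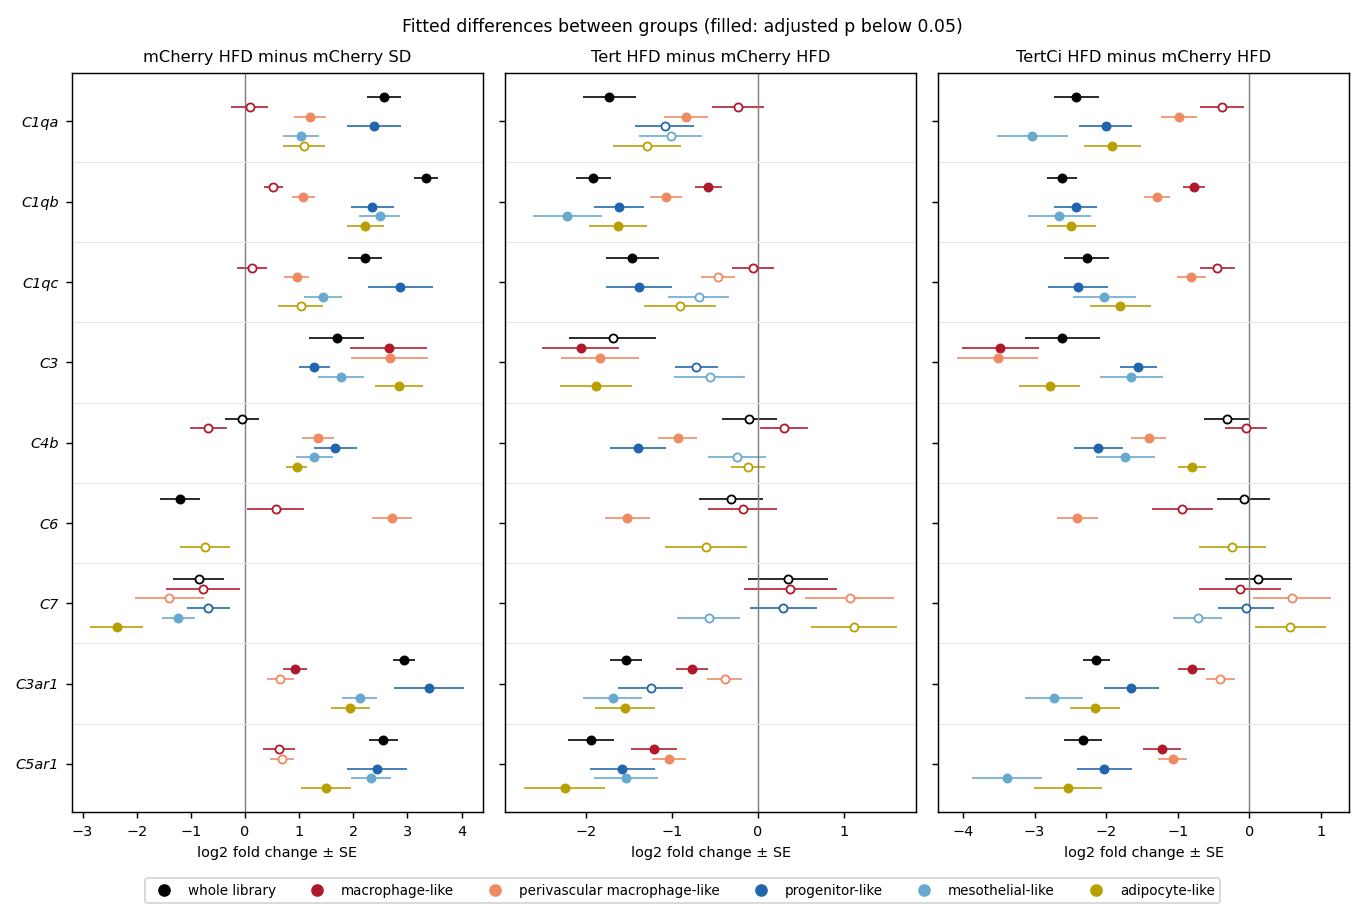
Fitted log2 differences with their standard errors for the 9 genes in the whole library and 5 sets of nuclei, for the diet and both genotype comparisons, filled where the adjusted p was below 0.05. The C1q and receptor differences of the whole library shrink within macrophage-like nuclei, C6 differs most in perivascular macrophage-like nuclei, and C7 lies near or below 0 on the diet.

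The calls in other classes are counted here beside the share over all genes. Of the 8 members tested in progenitor-like nuclei, 7 rose on the diet (7.4% of all genes rose), and 4 fell in Tert HFD (7.76% of all genes fell) and 7 in TertCi HFD (12.5%). In mesothelial-like nuclei 7 rose (10.2% of all genes) and C7 fell (3.91%) on the diet, and 3 fell in Tert HFD (4.1%) and 7 in TertCi HFD (8.45%). In adipocyte-like nuclei 5 rose (12.5% of all genes) and C7 fell (7.84%) on the diet, and 4 fell in Tert HFD (2.38%) and 7 in TertCi HFD (8.52%). In endothelial-like nuclei 1 rose on the diet (5.13% of all genes), and 4 fell in Tert HFD (7.47%) and 6 in TertCi HFD (12.1%). C1q, C3ar1 and C5ar1 made up most of these, at levels below those of barcodes of at most 100 UMIs in at least 7 of 8 libraries for each of these genes in progenitor-, mesothelial- and adipocyte-like nuclei. In endothelial-like nuclei C5ar1 was above these barcodes in 4 of 8 libraries and C3ar1 in 3. None of the adipocyte-like calls was made without mCherry HFD rep128, which left 56 adipocyte-like nuclei of mCherry HFD rep129 in that group.

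Between Tert HFD and TertCi HFD no member was called in the whole library by edgeR, where no gene was called at all (0.0% of 24825). At an unadjusted p below 0.05 there were 3 of 9, C1qb, C1qc and C3ar1, all higher in Tert HFD, and DESeq2 called 0, also with 3 at an unadjusted p below 0.05. Without the filter on low counts edgeR called 3 of the 9. The 0.0% belongs to the fit with the filter. The share of all genes called without the filter was not set beside these 3, so they cannot be read as a result about the members. With the filter, C1qb differed by 0.70 (SE 0.200, adjusted p 0.813 by edgeR), C3 by 0.93 (SE 0.501, adjusted p 0.901) and C6 by -0.23 (SE 0.370, adjusted p 0.996). At an unadjusted p below 0.05 in edgeR there were 1 of 9 in macrophage-like, 2 of 9 in adipocyte-like, 4 of 8 in progenitor-like and 5 of 8 in both mesothelial- and endothelial-like nuclei, against 0, 1, 1, 2 and 2 in DESeq2, and neither tool called any. The share of all genes at this unadjusted threshold was not set beside any of these counts, so they cannot be read as a result about the members. With 2 mice per group these data do not show that the 2 genotypes act alike.

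The wider complement list held 43 further genes, of which 38 passed the filter on low counts in the whole library. There 11 rose and 4 fell on the diet, beside 21.6 and 16.8% of all genes, 8 fell in Tert HFD (11.2% of all genes), and 15 fell (18.6%) and 1 rose (13.2%) in TertCi HFD, with medians of 1.03, -0.82 and -1.04. On the diet the largest rises were in C4bp, a binding protein that restrains C4 (4.94), Colec10 (4.72), Itgax (3.81), Hc, the mouse C5 gene (3.03), and C9 (2.58). C4bp stood at 15.1 CPM in mCherry HFD rep128 and at most 0.47 CPM in every other library, so its value rests on that mouse, and Colec10, Hc and C9 were at most 2.2 CPM in any library. C4bp, Hc and C9 are made chiefly by the liver, and the unnamed cluster led by Alb, the albumin gene, had 32 of its 37 nuclei in mCherry HFD rep128. Those 32 nuclei held C4bp at 201 CPM (53 UMIs), Hc at 563 CPM (148 UMIs) and C9 at 258 CPM (68 UMIs), while the whole library held 2104, 308 and 258 UMIs of these genes. They also held C3 at 133 and C4b at 110 CPM. Most C4bp UMIs of mCherry HFD rep128 thus lay outside these 32 nuclei. The 228 epithelial-like nuclei, from the same mouse alone, were not set beside these genes. The part of either set of nuclei in the rises was not tested. The genes that fell were Cfd, adipsin, the factor D made by adipocytes (-2.93), C2, the partner of C4 in the convertase (-1.54), Cd55b (-1.49) and Cd46 (-0.60). Cfd was 25.7 and 127 CPM in mCherry SD, 9.35 and 16.9 in mCherry HFD, 35.8 and 10.95 in Tert HFD and 32.4 and 13.6 in TertCi HFD. It was not among the genes called on the diet in adipocyte-like nuclei. Their share of called nuclei was 23.9 and 28.0% in mCherry SD and 2.42 and 1.95% in mCherry HFD. The part of this share in the whole-library fall of Cfd was not tested. In Tert HFD the largest falls were in C4bp (-5.41), Cr2 (-2.64), Hc (-2.34), Fcna (-2.08) and Masp2 (-1.68), and in TertCi HFD in C4bp (-5.50), Fcna (-2.56), Vsig4 (-2.56), Clu (-2.17) and Cr2 (-2.16), while Cd59a, an inhibitor of the terminal complex, rose (1.43).

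In macrophage-like nuclei 20 of the 43 were tested, of which 2 rose (11.5% of all genes) and 3 fell (9.34%) on the diet, 4 fell in Tert HFD (11.9%), and 5 fell (15.5%) and 1 rose (10.5%) in TertCi HFD. Itgax, the chain of complement receptor 4 that also marks lipid-associated macrophages, rose by 4.02 and C5ar2, the second C5a receptor, by 1.76 on the diet, while Cfd (-3.03), Cfhr2 (-2.08) and Cfp, properdin (-0.94), fell. Macrophage-like nuclei held Cfd at 0.0 and 32.1 CPM in mCherry SD and 1.84 and 4.49 in mCherry HFD, below the 41.0 and 174 and the 11.6 and 35.0 CPM of barcodes of at most 100 UMIs. Summed adipocyte markers in these nuclei moved with it, from 1605 and 2331 CPM in mCherry SD to 767 and 955 in mCherry HFD, and their part in the result was not tested. In Tert HFD 4 fell (Masp2, Cr2, Serping1 and Itgax, -2.54 to -0.82). In TertCi HFD 5 fell, Masp2 (-5.07), Serping1 (-2.49), C1s1 (-1.98), Cr2 (-1.84) and Itgax (-0.99), and Cfhr2 rose (1.40). In progenitor-like nuclei 15 of the 43 were tested, and 4 rose on the diet (7.4% of all genes). Serping1, the C1 inhibitor, rose by 0.96 (SE 0.167, adjusted p 0.00492 by edgeR). C1s1, a C1 protease, rose by 0.66 (SE 0.183, adjusted p 0.0376 by edgeR). Cr2, complement receptor 2, rose by 3.46 and Itgax by 2.57, while Cfd fell by 3.01, all 3 at no more than 20.2 CPM in any library. Serping1 went from 117 to 262 CPM there in the group means and C1s1 from 89.5 to 164 CPM, and both fell in Tert HFD (-0.84 and -0.67) and TertCi HFD (-1.01 and -1.04), as did Cr2 (-2.85 and -2.28). In mesothelial-like nuclei Serping1 rose by 1.17 on the diet, from 64.1 and 60.4 CPM to 169.7 and 147, where barcodes of at most 100 UMIs held 51.3 and 38.2 and then 106 and 193 CPM. In adipocyte-like nuclei it rose by 2.09, from 9.28 and 9.80 to 50.05 and 50.67 CPM, below those barcodes throughout, and C2 fell by 2.51, from 31.6 and 21.3 CPM to 5.79 and 5.33. The adipocyte-like values of mCherry HFD rest on 180 and 56 nuclei. Other diet calls were Itgax (3.72), Vsig4 (2.97), Cr2 (2.40) and Itgb2 (1.66) in mesothelial-like nuclei, and Itgax (3.08), C5ar2 (2.44), Itgb2 (1.91) and Cr1l (-0.63) in adipocyte-like nuclei. In endothelial-like nuclei Cfd fell (-3.70) and Itgax rose, from no UMI in either mCherry SD mouse to 57.2 and 50.4 CPM in mCherry HFD. In perivascular macrophage-like nuclei Itgax (3.62) and Vsig4 (2.09) rose. Between genotypes, Cr2 (-2.67), Itgax (-2.15) and Itgb2 (-1.71) fell in Tert HFD in mesothelial-like nuclei, where Vsig4 (-3.30), Cr2 (-3.09), Itgax (-2.003), Itgb2 (-1.99) and Serping1 (-0.88) fell in TertCi HFD. In adipocyte-like nuclei Fcna (-3.22), C5ar2 (-2.58), Itgb2 (-2.24) and Itgax (-1.75) fell and Cr1l rose (0.73) in TertCi HFD. In endothelial-like nuclei Itgax (-1.91) and Itgb2 (-1.02) fell in Tert HFD, and Itgax (-2.03), Vsig4 (-1.99), Itgb2 (-1.47) and Serping1 (-0.94) in TertCi HFD. In perivascular macrophage-like nuclei Itgax (-2.35), Vsig4 (-2.11) and Fcna (-2.06) fell and Cd55 rose (1.92) in Tert HFD, and Itgax (-3.06), Vsig4 (-2.22), Fcna (-2.16) and Itgb2 (-0.999) fell in TertCi HFD. Free RNA was not set beside these values.

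Over 71 sums of at least 20 nuclei of 1 class in 1 library, the genes whose log2(CPM + 10) was most like that of C1qa by Pearson's r among 9548 genes were C5ar1 (0.91), Cybb, Abhd12, C1qc and Hpgds. For C1qb they were Hpgds, Apobec1, Ms4a14, Pltp and C5ar1, for C1qc C1qa, C3ar1, C5ar1, Ctsb and Adgre1. C3 was most like Aebp1 (0.85), S100a6, Col3a1, Glis2 and Fst, and C7 most like 4930578G10Rik (0.86), Fndc1, Gfpt2, Galnt17 and Pdgfra. C4b had Reep5 (0.78), C9orf72, Pon3, Ywhag and Fmr1, and C6 had Vps13c (0.77), Mpp1, Osbpl11, Aplp2 and Slc38a6. For C3ar1 they were Apobec1, Ctsb, Hpgds, Ms4a7 and Cd300c2, and for C5ar1 Hpgds, C1qb, C1qa and Ccl9. The sums share libraries, depth and free RNA, so these values are descriptions.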

How the data were processed

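Single-nucleus RNA of visceral white adipose tissue was counted with 10x Genomics 3′ libraries in 8 mice. The values are UMI counts per gene and barcode that the authors deposited as matrices. The file headers name Cell Ranger 7.1.0, while the submitters' processing notes name Cell Ranger 5.0.1, bcl2fastq 2.20.0 and build mm39. Strand handling is not given in the sources used here. Per the labels, mice were processed 2 per batch in random order, and no batch per mouse is given, so batch and group cannot be told apart.

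Barcodes were called nuclei above 500 UMIs or 0.1 of the depth at the 99th percentile among a library's 5000 deepest, whichever was higher, if they had 300 genes or more and a mitochondrial share of UMIs up to 5%. Per library, the nuclei with the highest Scrublet doublet scores were removed, 0.8% of them per 1000 nuclei. Nuclei were clustered in scanpy 1.11.5 (2000 variable genes without complement genes, 30 components, 15 neighbours, Leiden resolution 1.0, 35 clusters). A cluster was named from at least 3 markers raised 2-fold over the 25th percentile of clusters (offset 5 CPM). A cluster whose second lineage scored over 0.5 of its first was called mixed unless 2 of its own markers were among its 10 leading genes, an exception added after the mixed clusters had been seen. A further clustering of macrophage-like nuclei used resolution 0.5. Counts were summed per library and class of at least 20 nuclei and tested with edgeR 4.0.16 (TMM, filterByExpr, quasi-likelihood fit of the 4 groups together, adjusted p threshold 0.05). DESeq2 1.42.0 was an alternative. The edgeR differences follow TMM scaling and the CPM given here do not, so the sizes of fitted and CPM differences need not match. Standard errors are the log2 difference over the square root of F. Poisson intervals cover counting error only. The edgeR procedure was also run on simulated counts with the same spread for every gene, which does not cover mice of a group as unlike as these.

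The members and lists were chosen with earlier results of these data known. All 9 members are named, as are the wider list's called genes with the largest changes, up to 5 per direction, and the 5 genes most like each member, apart from some genes that are not reported here. The labels call the replicates mice and say no more of them. The p-values rest on a spread between mice that was estimated over the 4 groups together, with 2 mice in each. Between the 2 mice of a group, the chi-square per degree of freedom was 133 in mCherry SD and 38.7 in mCherry HFD. It was 348 in Tert HFD and 60.0 in TertCi HFD, and the part of such differences in the calls was not tested.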

Additional observations from a re-analysis of the deposited data

Results flagged for a closer look

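The fitted diet difference of C4b pointed in opposite directions between classes. Both mCherry HFD mice lay above both mCherry SD mice in the first classes named here and below them in the others. It was 1.67 in progenitor-like, 1.28 in mesothelial-like and 0.95 in adipocyte-like nuclei on the log2 scale, against -0.68 in macrophage-like and -0.70 in endothelial-like nuclei, where it was not called. The mesothelial-like call was lost with DESeq2 (1.29, adjusted p 0.245), at Leiden resolution 2.0 (1.03, adjusted p 0.0515 by edgeR) and without mCherry HFD rep128 (1.42) or rep129 (1.01) or mCherry SD rep144 (0.89). In mCherry SD the macrophage-like value rests on 93 and 158 nuclei, with 42.1 and 58.9 CPM against 31.4 and 41.8 in mCherry HFD, and the endothelial-like value on 27 and 44 nuclei with 4 and 11 C4b UMIs. Summed adipocyte markers were also lower in mCherry HFD in both these classes, with 1605 and 2331 CPM in mCherry SD against 767 and 955 in macrophage-like and 1871 and 2767 against 1497 and 1545 in endothelial-like nuclei. They were lower as well where C4b was higher, with 2377 and 2747 against 1267 and 1284 CPM in progenitor-like and 3238 and 2562 against 1249 and 1621 in mesothelial-like nuclei, and their part in these differences was not tested. In the perivascular macrophage-like subset the C4b diet difference was 1.35, and called, though group and subcluster cannot be told apart there. The C4b level was above that of barcodes of at most 100 UMIs in 8 of 8 libraries in adipocyte-like nuclei, in 2 in the perivascular subset, in 1 each in mesothelial-, macrophage- and endothelial-like nuclei and in 0 in progenitor-like nuclei. For C6 it was 0.57 in macrophage-like and -0.74 in adipocyte-like nuclei, neither called. The macrophage-like C6 value was 0.20 without mCherry SD rep144, 1.59 without mCherry SD rep146 and 0.34 without mCherry HFD rep129. The difference between classes was not tested for either gene.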

How the results depend on the processing

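No paired analysis was possible because the replicate numbers in the labels differ between groups and pair no samples. Counts of called values among the members, over 4 comparisons, were 18 in the whole library (13 to 19 when 1 library was left out), 10 in macrophage-like (5 to 13), 18 in progenitor-like (11 to 18), 18 in mesothelial-like (8 to 18), 17 in adipocyte-like (0 to 18), 11 in endothelial-like (6 to 14) and 19 in perivascular macrophage-like nuclei (15 to 20). DESeq2 made 7 calls in mesothelial-like nuclei, Leiden resolution 2.0 gave 9 in adipocyte-like nuclei, and nuclei of at least 1000 UMIs gave 17 in endothelial-like nuclei, and the cause was not tested. The share of all genes called was not set beside the counts of these settings or of the fits without 1 library. Whether such shifts concern the members or all genes was therefore not tested. Of 111 called values, 40 stayed called in every setting run and none changed sign. Without the filter on low counts all 111 stayed called, and 7 of the 16 uncalled values followed here became called. The 111 include the 19 of the perivascular fit, which was added after its C6 levels had been seen. Beside the fits without 1 library, that fit was run in only 2 other settings. Values that were not called did change sign. The C4b diet difference in the whole library ranged from -0.63 to 0.36 when 1 library was left out (0.36 without mCherry HFD rep128, 0.12 without mCherry SD rep146). For C1qa in macrophage-like nuclei, leaving out 1 library gave diet differences from -0.19 to 0.54 (below 0 without mCherry HFD rep129 or mCherry SD rep144). Its Tert differences ranged from -0.77 to 0.14 (above 0 without Tert HFD rep136) and its TertCi differences from -1.06 to 0.051 (above 0 without TertCi HFD rep140). Without the subcluster with raised adipocyte markers the Tert difference was 0.10. Leaving out 1 library leaves a group with 1 mouse, assumed to vary like the others. Naming by marker scores alone left no mesothelial-like nuclei and gave no value there. Classes of few nuclei and UMIs, such as mesothelial-like nuclei of Tert HFD rep136, limit the precision.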
